A study of Mus musculus with 4 samples.

Results

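The 10 genes described here encode the MHC class I antigen presentation machinery and the inducible catalytic subunits of the immunoproteasome. They were chosen by gene name (H2-K1, H2-D1, B2m, Tap1, Tap2, Tapbp, Psmb8, Psmb9, Psmb10 and Nlrc5) from a deposited table of 48432 gene rows, and each name matched 1 row. RNA came from cardiomyocytes isolated by Langendorff perfusion from the hearts of 2 groups of mice, both on a C57BL x FVB background and both given doxycycline in the diet for 3 days. The control group carried the genotype label MHC (2 libraries), and the Rbfox2 OE group was labelled RbFox2 and overexpressed RBFOX2, an RNA-binding regulator of splicing (2 libraries). The MHC of the control label names a mouse line and has nothing to do with the genes below. The labels do not state the promoter that drives the transgene, the age or sex of the animals, whether hearts were pooled, or which H2 haplotype each animal carried.

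Nucleated cells display fragments of their own proteins on MHC class I molecules, where CD8 T cells and natural killer cells read them. The proteasome cuts the proteins, the TAP transporter moves the peptides into the endoplasmic reticulum, and a loading complex places them on a heavy chain paired with beta-2 microglobulin. Interferons raise the genes of this route together and replace the standard catalytic subunits of the proteasome by inducible ones. In the heart, endothelial cells and leukocytes are rich in class I transcripts, while resting cardiomyocytes carry few of them.

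Levels are in FPKM, fragments scaled for transcript length and library size. The authors' table pools the libraries of a group into a single level per gene, with an interval around it. No spread between libraries and no test between the groups could therefore be had, and what level of certainty the bounds stand for is unknown. Every level below is such a pooled value of theirs, and the range in parentheses after it is their interval, called the bounds. The overexpressed gene checks the labels: Rbfox2 measured 14.7 FPKM (10.4 to 19.0) in control cells against 293 FPKM (214 to 373) in Rbfox2 OE cells. All 10 members had the status OK in both groups and passed the filter of a mean of at least 1 FPKM, as did 11697 gene names in all.

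The regulatory DNA of the class I genes is shown first, because the members are known to be controlled through short shared elements upstream of their start sites. RefSeq promoters (GRCm38.p6) were found for 8 of the 10 members. Tap2 and Nlrc5 had no entry. The 250 bases upstream of the H2-K1 start (chr17:34000348-34000597, minus strand) and the 249 bases upstream of the B2m start (chr2:122147437-122147685, plus strand) are given 5′ to 3′. Capitals mark matches, on either strand, to the core of the interferon-stimulated response element (GAAA, any 2 bases, GAAA), CCAAT (bound by NF-Y), TGACG (a CRE half-site) and the NF-kB consensus.

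H2-K1: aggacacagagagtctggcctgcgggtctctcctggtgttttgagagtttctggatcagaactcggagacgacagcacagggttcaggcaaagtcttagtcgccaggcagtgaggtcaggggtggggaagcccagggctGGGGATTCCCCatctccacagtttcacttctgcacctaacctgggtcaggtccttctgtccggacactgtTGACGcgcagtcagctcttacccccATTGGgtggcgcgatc

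B2m: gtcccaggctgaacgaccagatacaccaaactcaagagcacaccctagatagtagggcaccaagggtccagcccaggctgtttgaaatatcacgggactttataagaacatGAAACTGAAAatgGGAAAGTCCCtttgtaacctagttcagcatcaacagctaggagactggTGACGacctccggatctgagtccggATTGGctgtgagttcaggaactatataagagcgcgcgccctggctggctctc

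The B2m window held 1 match each to the interferon-stimulated core, the NF-kB consensus, the CRE half-site and the NF-Y element. The H2-K1 window held the CRE half-site, the NF-Y element and 2 overlapping matches to the NF-kB consensus. It held no match to GAAA, any 2 bases, GAAA, and variants of that core were not searched. The NF-Y element and the CRE half-site occurred together in the upstream window of 5 of the 8 members (B2m, H2-D1, H2-K1, Psmb9 and Tap1), against 6.12% of all 32851 RefSeq promoters, searched over the same 250 bases on both strands. Windows here are upstream of RefSeq starts. Those of H2-D1, Psmb9, Psmb8 and Tapbp lay wholly within exons of the GENCODE gene models (250 bases each), as did that of Tap1 (225 bases). Matches there fall in sequence that GENCODE annotates as transcribed. The NF-kB consensus occurred in 3 of the 8 (B2m, H2-D1 and H2-K1) against 7.25%, the NF-Y element in 6 against 33.8% and the CRE half-site in 5 against 17.8%. This exact form of the interferon-stimulated core (GAAA, any 2 bases, GAAA) matched in B2m alone of the 8, against 2.98% of all promoters. TTCNNNGAA, the core of STAT dimer sites, occurred in Psmb8 alone among the 8, against 7.02%. A match describes the letters only, and the lack of one does not show that a related site is absent. Tap1 and Psmb9 are read in opposite directions from starts 225 bases apart (chr17:34187330-34187556), so the Tap1 window, cut at 225 bases, lies inside the Psmb9 window and its matches count for both.

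To compare the genes directly, 30 bases around TGACG are set side by side for H2-K1 (chr17:34000371-34000400, minus strand), H2-D1 (chr17:35262981-35263010, plus strand), B2m (chr2:122147597-122147626, plus strand) and Tap1 (chr17:34187458-34187487, plus strand), with TGACG in capitals.

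H2-K1: tccggacactgtTGACGcgcagtcagctct

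H2-D1: ccgggacactgaTGACGcgctggcaggtct

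B2m: ctaggagactggTGACGacctccggatctg

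Tap1: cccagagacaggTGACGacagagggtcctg

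The H2-D1 window had the same base as that of H2-K1 at 24 of 30 positions, and the B2m and Tap1 windows at 13 each, of which 5 are the motif itself. Around the NF-kB consensus, H2-K1 (chr17:34000438-34000467, minus strand) and H2-D1 (chr17:35262914-35262943, plus strand) had the same base at 29 of 30 positions. Capitals mark the 2 overlapping matches.

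H2-K1: cccagggctGGGGATTCCCCatctccacag

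H2-D1: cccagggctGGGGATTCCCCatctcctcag

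Across the 10 members, values were higher in Rbfox2 OE for 9 and lower for Psmb10, whereas 46.2% of all genes tested had a higher value there. When mitochondrial and the 10 most abundant genes were taken out of the scaling, all Rbfox2 OE values moved up by 0.16 on the log2 scale. A shift upward could change the direction of Psmb10 alone, and Psmb10 stayed lower, at -0.19. The median log2 ratio (Rbfox2 OE to control), taken on FPKM plus a pseudocount of 1, was 0.83 for the members and -0.06 for all genes tested. The differences were moderate. With the pseudocount of 1, a ratio of at least 2-fold was reached by 3 members, Psmb8, Tap1 and H2-D1, all higher in Rbfox2 OE. Of all genes, 17.0% reached it in either direction and 6.97% higher. The 2-fold threshold ran through the members: H2-D1 stood just on it, and Nlrc5 and H2-K1 lay just under it, at 0.98 and 0.92. Without the pseudocount, the plain ratio of Nlrc5 was 2.85. The authors' bounds were separate between the groups for 1 member, H2-K1, against 16.0% of all genes in either direction (6.66% higher and 9.33% lower). The count of 1, as deposited, is near the background and is no result about the members as a list. With the rescaled values, separate bounds were found for 3 members (H2-K1, H2-D1 and B2m), all higher, against 15.7% of all genes in either direction and 8.71% higher. At least 2-fold were then 5 members, all higher, against 16.9% in either direction and 9.06% higher. As deposited, the bounds of the other 9 members overlapped. Summed macrophage and leukocyte markers were also higher in Rbfox2 OE (155 FPKM against 570 FPKM), as were endothelial markers (671 FPKM against 1204 FPKM), and their part in these differences was not tested. In such bulk RNA, more cells of a type and more RNA per cell cannot be told apart.

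**Figure D1:**
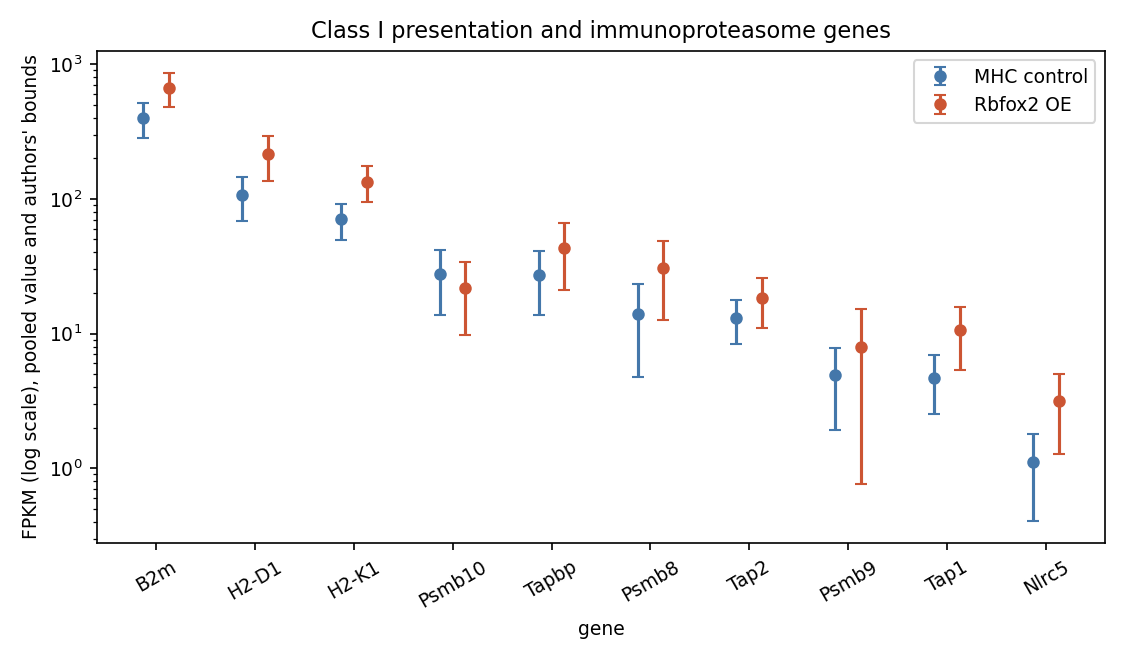
FPKM of each member on a log axis in the MHC control (blue) and in Rbfox2 OE (orange). Points are the authors' pooled values and bars their bounds. The order runs from B2m, at 398 FPKM in the control, down to Nlrc5, at 1.10 FPKM, and Psmb10 is the 1 gene with the lower point in Rbfox2 OE.

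**Figure D2:**
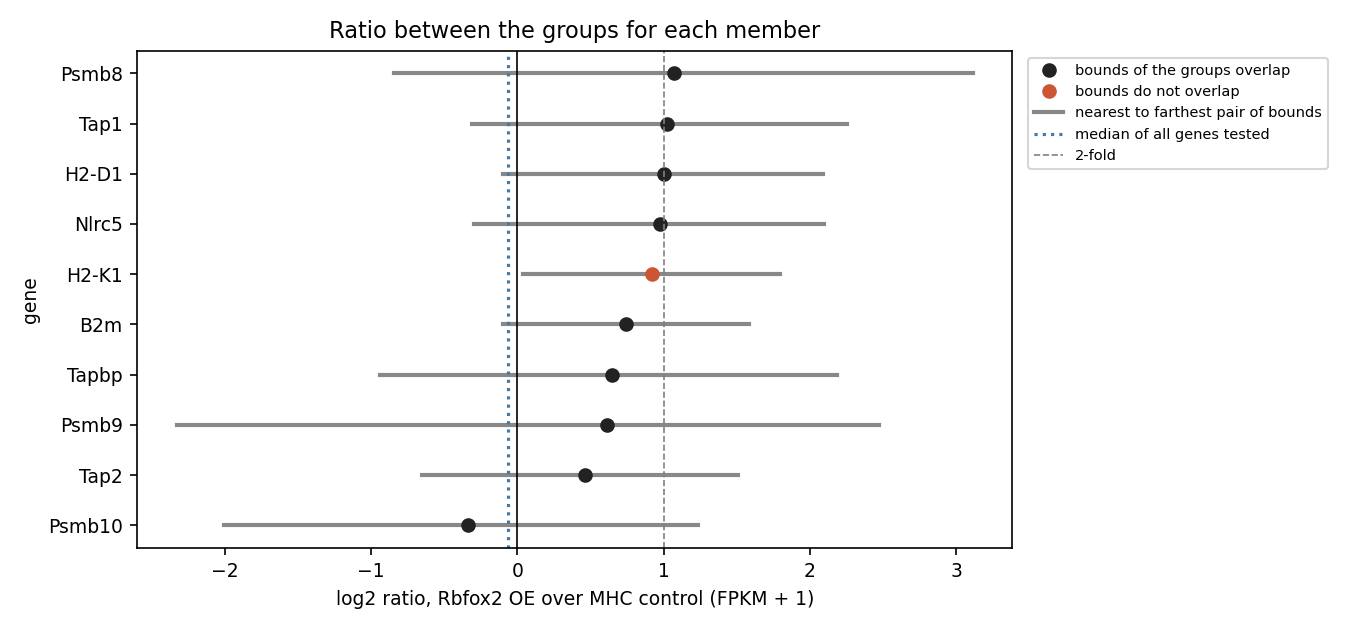
Log2 ratio between the groups, Rbfox2 OE to MHC control (FPKM plus 1), for each member. Points are the ratios of the pooled values and grey lines run from the nearest to the farthest pair of bounds. The line of H2-K1 alone stays above 0, and that of Psmb9 is the widest.

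The class I molecule itself was made up of the most abundant members. H2-K1, a classical heavy chain (GRCm38 chromosome 17, 33996017 to 34000347, minus strand), measured 70.6 FPKM (49.6 to 91.6) in control cells against 135 FPKM (94.3 to 175) in Rbfox2 OE cells. Its lower bound in Rbfox2 OE was 1.03 times the upper bound of the control, so the groups were separate by a narrow margin, and its ratio was 1.91. H2-D1, the second classical heavy chain (chromosome 17, 35262730 to 35267499, plus strand), measured 107 FPKM (68.1 to 146) against 215 FPKM (136 to 294), a ratio of 2.01 with bounds that overlapped slightly. B2m, which encodes the light chain shared by all class I molecules (chromosome 2, 122147686 to 122153083, plus strand), measured 398 FPKM (285 to 511) against 667 FPKM (477 to 858), a ratio of 1.68 with overlapping bounds. All 3 chains had the higher pooled value in Rbfox2 OE, and only H2-K1 had separate bounds. How well fragments of an FVB H2 allele match the GRCm38 reference was not tested, and it bears on the values of both heavy chains and of the other H2 genes below. H2-K1 and H2-D1 together came to 178 FPKM in control cells against 350 FPKM in Rbfox2 OE cells, and B2m stood at 2.24 times that sum in control cells and at 1.91 times in Rbfox2 OE cells.

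The heavy chains resemble each other and other H2 genes, so part of their fragments could be assigned to more than 1 gene. In GENCODE M21 transcripts, 9.63% of the distinct 50-base words of H2-K1 and 12.8% of those of H2-D1 also occurred in another gene, most often in H2-Q10 and H2-Q1. B2m, Psmb9, Psmb10 and Nlrc5 shared 0% with other genes. Of 23 further class I and class I-like heavy chains on the list, 21 were in the table and 14 passed the filter. Their median log2 ratio was 0.49, with 12 values higher and 2 lower. The bounds were separate for H2-Q4 and H2-Q6, both higher, and for Hfe, lower, while 11 had overlapping bounds. Of all genes tested, 16.0% had separate bounds, 6.66% higher and 9.33% lower. Cd1d2 was listed at 0 in both groups. H2-Q4, a nonclassical heavy chain, measured 19.0 FPKM (13.1 to 25.0) in control cells against 48.6 FPKM (33.0 to 64.2) in Rbfox2 OE cells. H2-Q6 measured 4.99 FPKM (3.28 to 6.70) against 10.2 FPKM (6.76 to 13.7). Both belong to the Q family, and 21.8% of the 50-base words of H2-Q4 and 32.0% of those of H2-Q6 are shared with other genes, so their values are uncertain. Hfe, a class I-like protein that acts in iron sensing rather than in peptide display, measured 25.5 FPKM (17.1 to 33.8) against 11.2 FPKM (7.25 to 15.1).

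The transport and loading genes had lower levels than the class I chains. Tap1, 1 subunit of the peptide transporter (chromosome 17, 34187553 to 34197225, plus strand), measured 4.71 FPKM (2.53 to 6.88) in control cells against 10.6 FPKM (5.37 to 15.8) in Rbfox2 OE cells, a ratio of 2.25. Tap2, the other subunit (chromosome 17, 34203527 to 34216321, plus strand), measured 13.1 FPKM (8.43 to 17.8) against 18.4 FPKM (10.9 to 25.8), a ratio of 1.40. Tapbp, or tapasin, which bridges the transporter and the heavy chain (chromosome 17, 33915899 to 33929292, plus strand), measured 27.4 FPKM (13.7 to 41.1) against 43.5 FPKM (21.0 to 66.1), a ratio of 1.59. The bounds of all 3 genes overlapped between the groups. The TAP subunits form a heterodimer, and the level of Tap2 was 2.78 times that of Tap1 in control cells and 1.73 times in Rbfox2 OE.

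Among 13 chaperone, trimming and translocation genes that serve class I and other proteins, the median log2 ratio was 0.01, with 7 values higher and 6 lower. The bounds were separate for 1 of them, Tpp2, a large cytosolic peptidase, against 16.0% of all genes tested in either direction (9.33% lower). Tpp2 measured 15.5 FPKM (10.7 to 20.3) in control cells against 7.14 FPKM (4.54 to 9.75) in Rbfox2 OE cells. The general chaperones of the loading complex were abundant in both groups: Calr stood at 268 FPKM and 261 FPKM, and Canx at 120 FPKM in each group, all with overlapping bounds.

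The 3 inducible proteasome subunits did not all lie on the same side. Psmb8, which replaces Psmb5 in the immunoproteasome (chromosome 17, 34197721 to 34201454, plus strand), measured 14.1 FPKM (4.73 to 23.4) in control cells against 30.6 FPKM (12.6 to 48.6) in Rbfox2 OE cells, a ratio of 2.17. Psmb9, which replaces Psmb6 (chromosome 17, 34181987 to 34187764, minus strand), measured 4.89 FPKM (1.92 to 7.85) against 8.01 FPKM (0.767 to 15.2), a ratio of 1.64. Psmb10, which replaces Psmb7 (chromosome 8, 105935735 to 105938444, minus strand), measured 27.8 FPKM (13.7 to 41.8) against 21.7 FPKM (9.69 to 33.8), a ratio of 0.783. None of the 3 pairs of bounds was separate, and whether Psmb10 differs from Psmb8 and Psmb9 was not tested. The bounds were wide: they reached 90.4% of the value to either side for Psmb9 in Rbfox2 OE and 66.4% for Psmb8 in the control, against 28.4% for B2m in the control. Psmb8 and Tap2 share 1 locus in the authors' table, and so do Psmb9 and Tap1, and in all 8 members share a locus with another gene, so their values are uncertain as far as fragments went to a neighbour. Psmb10 shares its locus with 4 others.

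The standard catalytic subunits had higher values in Rbfox2 OE too, each with overlapping bounds. Psmb5 measured 55.0 FPKM in control cells against 69.9 FPKM in Rbfox2 OE cells, Psmb6 182 FPKM against 234 FPKM, and Psmb7 111 FPKM against 147 FPKM. Their log2 ratios lay between 0.34 and 0.40. The share of the inducible subunit in each pair does not depend on how the groups were scaled. Psmb8 made up 20.4% of the FPKM of Psmb8 and Psmb5 in the control and 30.4% in Rbfox2 OE. Psmb9 made up 2.62% of its pair with Psmb6 in the control and 3.31% in Rbfox2 OE. Psmb10 made up 20.0% of its pair with Psmb7 in control cells against 12.9% in Rbfox2 OE cells. The ranges that the bounds allow overlapped for all 3 pairs, for example 6.18% to 38.0% and 12.2% to 49.9% for Psmb8. In both groups the standard subunit was therefore the more abundant transcript of each pair by pooled value.

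**Figure D3:**
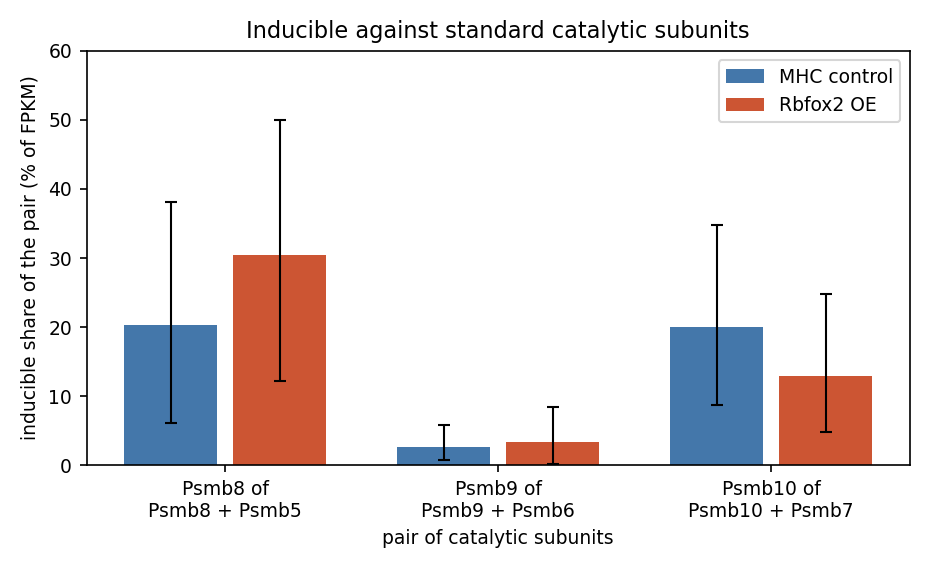
Share of the inducible subunit in the summed FPKM of each inducible and standard pair, in percent, for the MHC control (blue) and Rbfox2 OE (orange). Bars are shares of the pooled values and black lines the range that the authors' bounds allow. The Psmb8 bar is higher in Rbfox2 OE (30.4% against 20.4%), the Psmb10 bar lower (12.9% against 20.0%), and both Psmb9 bars lie under 4%.

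Of 9 proteasome activators and assembly factors, 2 values were higher and 7 lower in Rbfox2 OE, where 6289 of all 11697 genes had the lower value. Their median log2 ratio was -0.18, against -0.06 for all genes. The bounds were separate for Psme4 alone, against 16.0% of all genes tested in either direction (9.33% lower). Psme4, the activator PA200 of the nucleus, measured 43.1 FPKM (29.8 to 56.4) in control cells against 19.7 FPKM (12.4 to 27.1) in Rbfox2 OE cells. The activator PA28 is built from Psme1 and Psme2, which interferon raises together with the members. Psme1 measured 114 FPKM (77.1 to 150) against 58.9 FPKM (38.7 to 79.0), which overlapped narrowly, and Psme2 measured 41.6 FPKM (28.5 to 54.8) against 44.9 FPKM (25.1 to 64.6). The level of Psme1 was 2.73 times that of Psme2 in control cells and 1.31 times in Rbfox2 OE cells.

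Nlrc5, the transactivator that gathers RFX, CREB and NF-Y factors on class I promoters, was the least abundant member. The gene (chromosome 8, 94434356 to 94527272, plus strand) measured 1.10 FPKM (0.408 to 1.80) in control cells against 3.15 FPKM (1.28 to 5.01) in Rbfox2 OE cells. The plain ratio of 2.85 exceeded those of the other members, but the bounds overlapped and the pseudocount moved its log2 ratio between 0.42 and 1.43. Of 19 further regulators, 18 passed the filter, with 14 values higher, 4 lower and a median log2 ratio of 0.36. The bounds were separate for Stat2 alone, which carries type I interferon signals, against 16.0% of all genes tested in either direction (6.66% higher). Stat2 measured 4.42 FPKM (3.01 to 5.84) in control cells against 10.4 FPKM (6.84 to 14.0) in Rbfox2 OE cells. Irf1, a transcription factor induced by interferon-gamma, stood at 23.2 FPKM and 23.5 FPKM, with overlapping bounds. Ciita, the corresponding transactivator of class II genes, stood at 0.127 FPKM and 0.235 FPKM.

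Of 12 interferon ligand, receptor and signalling genes, 9 passed the filter, with 5 values higher and 4 lower and a median log2 ratio of 0.41. The bounds were separate for Ifngr1 alone, the ligand-binding chain of the interferon-gamma receptor, against 16.0% of all genes tested in either direction (6.66% higher). Ifngr1 measured 18.0 FPKM (12.2 to 23.8) in control cells against 38.0 FPKM (24.8 to 51.2) in Rbfox2 OE cells. The interferon genes on the list were near or at 0, and other interferon genes were not on it. Ifng measured 0.0375 FPKM in control cells against 0.0276 FPKM in Rbfox2 OE cells. Ifnb1 and Ifna4 were listed at 0 in both groups.

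In descending order of level, the control ran B2m, H2-D1, H2-K1, Psmb10, Tapbp, Psmb8, Tap2, Psmb9, Tap1 and Nlrc5. Steps between neighbours with separate bounds were B2m over H2-D1, H2-K1 over Psmb10, Tap2 over Psmb9, and Tap1 over Nlrc5. In Rbfox2 OE the order was B2m, H2-D1, H2-K1, Tapbp, Psmb8, Psmb10, Tap2, Tap1, Psmb9 and Nlrc5. Separate neighbours there were B2m over H2-D1 and H2-K1 over Tapbp, and the other neighbours in either order had overlapping bounds.

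Class I genes are expressed by nearly all cells, and markers of other cell types also had higher values in Rbfox2 OE. Of all genes tested, 46.2% had a higher value in Rbfox2 OE and 6.66% had separate, higher bounds. Of 16 macrophage and leukocyte markers, 16 had higher values in Rbfox2 OE and 14 had separate bounds. Their summed level was 155 FPKM in control cells against 570 FPKM in Rbfox2 OE cells, and the median log2 ratio was 1.72. The most abundant by the mean of the groups, Lyz2, C1qa and C1qb, stood at 41.3, 28.3 and 22.1 FPKM in control cells against 170, 71.7 and 69.2 FPKM in Rbfox2 OE cells. Of 12 endothelial markers, 12 had higher values and 6 separate bounds, with a summed level of 671 FPKM and 1204 FPKM and a median of 0.93. Fabp4, Ly6c1 and Cdh5, the highest by that mean, measured 291, 138 and 47.5 FPKM in control cells against 388, 375 and 88.0 FPKM in Rbfox2 OE cells. Of 12 fibroblast markers, 12 had higher values and 7 separate bounds, with a summed level of 496 FPKM and 991 FPKM and a median of 1.08. Gsn, Dcn and Col3a1, the highest by the mean of the groups, measured 254, 147 and 16.2 FPKM in control cells against 416, 301 and 74.2 FPKM in Rbfox2 OE cells.

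The remaining markers had low levels or mixed directions. The 14 markers of T and natural killer cells, which read class I molecules, all lay under 1 FPKM in both groups and summed to 1.34 FPKM in control cells against 4.27 FPKM in Rbfox2 OE cells. Gzma, Cd2 and Gzmb, the highest by the mean of the groups, measured 0.189, 0.163 and 0.116 FPKM in control cells. In Rbfox2 OE cells they measured 0.730, 0.659 and 0.587 FPKM. Of the list, Gzmb alone had separate bounds, with a lower bound of 0 in control cells. Without the filter, 2.18% of all genes had separate, higher bounds. All 14 had higher values in Rbfox2 OE. Of the 9 B cell and dendritic cell markers, 7 had higher values. They summed to 0.947 FPKM against 4.01 FPKM, and none passed the filter. Cd209a, Itgax and Cd79a, the highest by the mean of the groups, measured 0.188, 0.0657 and 0.236 FPKM in control cells. In Rbfox2 OE cells they measured 1.49, 1.23 and 0.387 FPKM. Bounds were separate and higher for Cd209a, Itgax and Flt3, the last named after its values were seen, against the same 2.18% without the filter. Each had a lower bound of 0 in control cells. Smooth muscle and pericyte markers had 9 higher values of 10, a median of 0.72, and sums of 916 FPKM and 1192 FPKM. Their bounds were separate and higher for 3 genes and lower for 1, against 6.66% and 9.33% of all genes tested. Highest by the mean of the groups was Des, which cardiomyocytes also express, at 711 FPKM and 848 FPKM. Rgs5 stood at 71.9 FPKM and 127 FPKM, and Acta2 at 43.7 FPKM and 140 FPKM. Abcc9, named after its values were seen, was the gene with separate, lower bounds, at 58.5 FPKM and 16.2 FPKM.

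Cardiomyocyte markers identified the preparation and had the opposite sign. They summed to 64658 FPKM in control cells against 40622 FPKM in Rbfox2 OE cells, sums that count Myh6 and Mb as 0. Myl2 stood at 24688 FPKM and 18007 FPKM, Tnnt2 at 10609 FPKM and 6917 FPKM, and Tnni3 at 7811 FPKM and 3866 FPKM. Of the 14, 12 passed the filter, 11 had lower values in Rbfox2 OE and the median log2 ratio was -0.68. Separate, lower bounds were found for 5 of them, against 9.33% of all genes tested. Myh6 and Mb were listed at 0 in both groups with the status HIDATA, which Cuffdiff gives to loci too deep to estimate. The part of these cell types in the members' values was not tested.

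**Figure D4:**
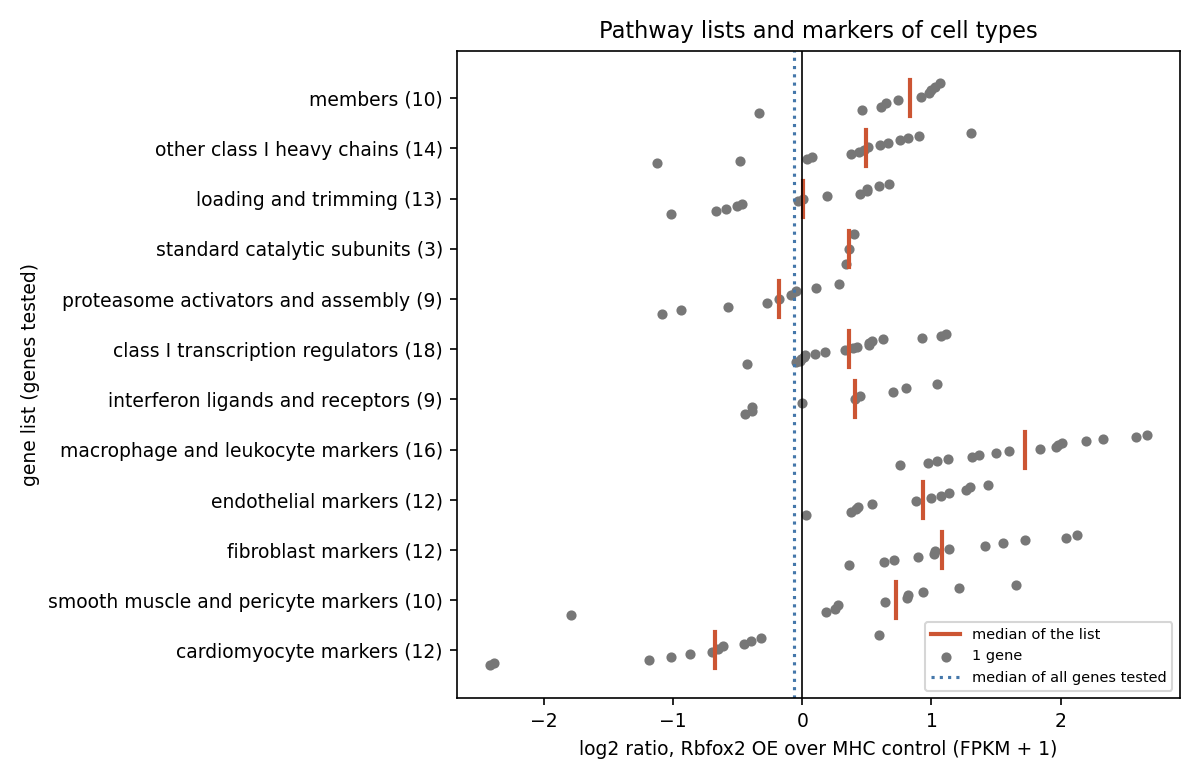
Log2 ratio between the groups, Rbfox2 OE to MHC control (FPKM plus 1), for each gene that passed the filter, in the members (top), the other pathway lists and the cell type marker lists. Orange bars are list medians and the dotted line is the median of all genes tested. The members' median of 0.83 is set beside medians of 0.93 for the endothelial, 1.72 for the macrophage and leukocyte and -0.68 for the cardiomyocyte markers.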

How the data were processed

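Polyadenylated RNA of 4 libraries (2 per group, grouped by title) was prepared with a stranded TruSeq kit, per the labels' protocols. The authors deposited 1 table of FPKM values and bounds in FPKM, pooled per group, in Cuffdiff's layout per the file headers. The submitters' processing notes list Cuffdiff 2.2.1, STAR 2.4.2a and the build GRCm38 (mm10). Their settings are not given in the sources used here, and depth in reads is unknown, so no counting interval was given. The use of strand in assigning fragments is not given either.

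Rows sharing a name (110 names) were summed with their bounds. Before taking log2, 1 FPKM was added to each value, so ratios of low genes come out too small. A gene entered the comparison when its 2 group values averaged 1 FPKM or more. Bounds were called separate when those of one group lay wholly above those of the other. No p-values were computed. Gene coordinates came from GENCODE M21 on GRCm38, in which all 10 members' identifiers were found, and Nlrc5 begins further upstream there than in the authors' table. The calculation was tested on simulated data. Python 3.11.15, pandas 2.3.3 and matplotlib 3.10.9 were used.

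Members and lists were chosen with earlier results of these data known. Beside the members, genes were named by rule: Rbfox2, the counterparts Psmb5, Psmb6, Psmb7, Psme1 and Psme2, up to 5 genes per pathway list with separate bounds, and in each marker list the 3 with the highest mean of both groups and any at 0. Calr, Canx, Irf1, Ciita, Ifng, Ifnb1 and Ifna4 were picked after their values had been looked at, and so was Cd1d2. Other settings were tried for scaling, the overlap rule, the fold threshold, the pseudocount, the filter and repeated names.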

Additional observations from a re-analysis of the deposited data

How the results depend on the processing

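No paired analysis was possible because libraries of a group were pooled into a single level, which leaves nothing to pair by replicate number. Leaving out each library was not run for the same reason, and how far libraries of a group differ is unknown. The 40 log2 ratios of single members under other pseudocounts and scalings stayed inside the range that the bounds allow. Their signs were unchanged, but a pseudocount cannot change a sign. Both scalings raised Rbfox2 OE, so only Psmb10 could have changed sign. The members' median lay between 0.63 and 0.99. Using the most abundant row of a repeated name could not change the pair shares, since none of the subunit genes had a repeated name. Of the 10 members, 3 were at least 2-fold apart with a pseudocount of 1. Members called in the settings that follow were all higher, and the shares of all genes are in either direction, then higher. The number was 4 with a pseudocount of 0.1 (23.4%, 10.1%) and 4 when centred on the median gene (16.8%, 7.87%). It was 0 with a pseudocount of 5 (7.38%, 2.60%) and 0 at a 4-fold threshold (2.48%, 1.16%). It was 8 at 1.5-fold (38.6%, 16.6%), and 5 after rescaling without mitochondrial and the 10 most abundant genes (16.9%, 9.06%). Rescaling shifted Rbfox2 OE by 0.16 on the log2 scale and the median gene from -0.06 to 0.07. Separate bounds, found for H2-K1 alone as deposited, were then found for 3 members (H2-K1, H2-D1 and B2m), all higher. Of all genes, 15.7% had them in either direction and 8.71% higher. When each value had only to lie outside the other group's bounds, 5 members passed (those 3, Tap1 and Nlrc5), all higher. Of all genes, 35.0% passed in either direction and 14.9% higher. Fewer or more calls follow from the construction of each setting.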

Other observations

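On chromosome 17, 7 of the 10 members lie between Tapbp and H2-D1 (33915899 to 35267499), within the mouse MHC. The table held 139 other gene names in that interval, of which 59 passed the filter. Their median log2 ratio was 0.13, against 0.92 for the 7 members there, and Rbfox2 OE had the higher value for 37 of them and the lower for 22. The bounds were separate and higher in Rbfox2 OE for 9 of the 59 (15.3%, against 6.66% of all genes tested). They were the class II genes H2-Aa, H2-Ab1, H2-Eb1, H2-DMa and H2-DMb1, the complement genes C4b and Cfb, the macrophage gene Aif1, and the chloride channel gene Clic1. The small RNA gene Gm24389 was separate and lower. These genes were named after their values were seen. Which H2 haplotype each animal carried is not stated, and its bearing on the values in this interval was not tested.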
